A study of Mus musculus with 8 samples.

Results

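Cd3e, Cd3g, Cd3d, Lck, Nkg7, Gzma, Ccl5, Klrd1 and Il2rb, 9 genes that mark T cells and natural killer (NK) cells, were followed mouse by mouse in whole bone marrow (BM) from an acute myeloid leukemia (AML) model. They were chosen by name as known T and NK cell genes, with earlier results of these data known. All 9 are among the 13305 genes of the count table. The series holds 8 mice on a C57BL/6N background that all carried Mx1-Cre; Dnmt3a+/- and Flt3ITD/ITD, and that differed in the scaffold gene Gab2. The 3 AML WT mice were Gab2+/+, the 2 AML HET mice Gab2+/- and the 3 AML KO mice Gab2-/-, so the groups had 2, 1 and 0 functional Gab2 alleles. Mx1-Cre, which recombines the floxed Dnmt3a allele, is driven by an interferon-inducible promoter and is not restricted to leukemic cells, the Flt3-ITD allele is a knock-in present in every cell, and the Gab2 knockout allele carries a neomycin cassette in place of part of the exons and is also present in every cell, lymphocytes included. The age of the sequenced mice is not given in the labels, and no mouse without the leukemia alleles was analysed here.

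T cells recognise antigen through the T cell receptor (TCR), whose antigen-binding chains signal through the CD3 chains encoded by Cd3e, Cd3g and Cd3d. On engagement, the Src-family kinase Lck phosphorylates the CD3 chains. NK cells and cytotoxic T cells share a killing programme: Nkg7 is a membrane protein of cytotoxic granules, Gzma is the granule protease granzyme A, and Ccl5 is a chemokine that attracts T cells and monocytes. Klrd1 is CD94, the common partner of the NKG2 receptors on NK cells, and Il2rb is the beta chain through which T and NK cells receive IL-2 and IL-15. In leukemic marrow such cells are a small part of the tissue, so their transcripts are a small part of a whole BM library.

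The 3 CD3 genes lie in one cluster on chromosome 9 (GENCODE M21, GRCm38). Cd3g lies from 44969572 to 44980431 on the minus strand, Cd3d from 44981786 to 44987339 on the plus strand, and Cd3e from 44998740 to 45009627 on the minus strand. Cd3g and Cd3d start 1355 bases apart and point away from each other. Because the levels of Cd3g and Cd3d varied together between mice more than those of any other pair, the 250 bases before each start are shown 5′ to 3′ (RefSeq, GRCm38.p6), at chr9:44980432-44980681 for Cd3g, chr9:44981536-44981785 for Cd3d and chr9:45009612-45009861 for Cd3e. Capitals mark matches to the motifs that were searched on both strands.
Cd3g: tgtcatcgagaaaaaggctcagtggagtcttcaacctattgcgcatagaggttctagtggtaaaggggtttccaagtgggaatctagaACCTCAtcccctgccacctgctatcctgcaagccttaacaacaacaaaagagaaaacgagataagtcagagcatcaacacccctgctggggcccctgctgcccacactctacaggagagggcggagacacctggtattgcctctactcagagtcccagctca
Cd3d: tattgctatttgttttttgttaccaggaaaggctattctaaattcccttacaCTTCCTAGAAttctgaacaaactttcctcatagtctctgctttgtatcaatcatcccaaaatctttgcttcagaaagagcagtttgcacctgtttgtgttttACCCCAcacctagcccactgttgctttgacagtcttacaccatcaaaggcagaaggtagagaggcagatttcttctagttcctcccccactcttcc
Cd3e: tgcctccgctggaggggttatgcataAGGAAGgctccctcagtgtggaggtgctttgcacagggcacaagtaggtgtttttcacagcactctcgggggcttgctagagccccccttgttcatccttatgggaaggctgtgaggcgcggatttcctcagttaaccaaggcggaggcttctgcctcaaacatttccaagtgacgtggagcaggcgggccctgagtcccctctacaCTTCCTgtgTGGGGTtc
The letters searched were TTCNNNGAA for the STAT core, found in 7.02% of 32851 promoter windows of this length. The RUNX core TGNGGT was in 40.1% of these windows, the ETS core AGGAAG in 29.5%, the E-box form CAGCTG in 13% and the TATA box TATAAA in 12.4%. The Cd3g window holds 1 RUNX match. The Cd3d window holds 1 RUNX, 1 ETS and 1 STAT match, of which the last overlaps the ETS match. In the Cd3e window there are 2 ETS matches and 1 RUNX match. The letters CAGCTG and TATAAA were not found in these 3 windows. Other forms of the E-box were not searched, so their absence is not shown. These matches describe the letters of the windows only. Of the other genes, Nkg7 lies on chromosome 7 from 43437073 to 43438249, Gzma on chromosome 13 from 113093825 to 113100981, Ccl5 on chromosome 11 from 83525778 to 83530518, Klrd1 on chromosome 6 from 129591782 to 129598775 and Il2rb on chromosome 15 from 78479256 to 78495271.

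The libraries held 28009258 to 39266815 counts on genes. Levels are given in CPM, counts per 1000000 library counts after TMM scaling. Gab2 itself, the targeted gene, had a mean ± SD of 74.7 ± 17.0 CPM over 3 AML WT mice. It was at 53.3 ± 3.57 over 2 AML HET mice and 40.8 ± 6.15 over 3 AML KO mice. The log2 fold change of AML KO against AML WT was −0.87 (adjusted p = 0.0420 in edgeR). The knockout allele lacks only part of the exons, and counts per gene do not tell the remaining exons from the replaced ones. The T cell label of the genes was checked with Cd3e, Cd3g, Cd3d, Lck, Cd2, Cd5, Trac, Trbc1 and Trbc2, which had between 21 and 812 counts in every mouse. The NK cell label was checked with Klrd1, Nkg7, Il2rb, Ncr1, Klrb1c and Eomes, which had 20 to 3239 counts. The deposited table lists only 13305 genes, 15 of them at 0 in any mouse, so these counts are no independent check of the labels. Foxp3, Ctla4, Klrg1, Fasl and Ifng are not among its genes. The AML WT mice were spread widely. Replicate 3 was the highest of the 3 for 7 of the 9 genes (77.8%), and for 34.5% of all genes, and replicate 1 was the lowest for 7 of the 9, and for 39.6% of all genes. Over all genes replicate 1 was the least alike of the AML WT mice, with a chi-square per gene of 87.7 against replicate 2 and 143.9 against replicate 3. Replicates 2 and 3 had 35.5. Pairs of AML KO mice had 47.7 to 118.1, so a wide spread was not particular to AML WT. Because AML WT replicates 1 and 3 lay at the ends for most of the 9 genes, AML KO against AML WT is also given without each. Bulk counts cannot tell fewer T or NK cells from less RNA per cell, nor their RNA from that of other marrow cells. Among the NK check genes, Nkg7 was at 73.4 to 106.5 CPM over all mice. Klrd1 and Il2rb reached 16.2 and 15.6 CPM, and Ncr1, Klrb1c and Eomes only 2.59, 4.62 and 3.89. Among the T cell check genes, Lck was at 11.998 to 27.0 CPM, and the next highest, Trbc2, reached 9.57. Whether other marrow cells contributed to Nkg7 and Lck was not tested. The labels name 8 separate mice, and p-values measure the spread between them.

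The CD3 genes varied widely between AML WT mice. Cd3e was at 0.516, 1.14 and 2.63 CPM in the AML WT mice, at 1.79 and 1.21 in the AML HET mice and at 1.24, 2.44 and 1.18 in the AML KO mice. Cd3g was at 0.713, 1.42 and 5.17 CPM in AML WT, 4.63 and 2.96 in AML HET and 3.20, 3.71 and 3.62 in AML KO mice. Cd3d was at 0.836, 2.43 and 6.37 CPM in AML WT, 4.87 and 5.003 in AML HET and 5.72, 4.66 and 4.83 in AML KO mice. In all 3 genes AML WT replicate 1 had the lowest and AML WT replicate 3 the highest level of all 8 mice, and every AML HET and AML KO mouse lay between them. The spread within AML WT was wide, with a coefficient of variation of 76.1% for Cd3e, 98.4% for Cd3g and 88.6% for Cd3d. In AML KO it was 43.8%, 7.72% and 11.3%. The counts behind these values were 21, 36 and 86 for Cd3e in the AML WT mice, 29, 45 and 169 for Cd3g and 34, 77 and 208 for Cd3d. AML WT replicate 1 had the most total counts of all libraries and the fewest CD3 counts.

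For AML KO against AML WT, the log2 fold change was 0.18 for Cd3e (standard error 0.55), 0.54 for Cd3g (0.59) and 0.67 for Cd3d (0.55). In edgeR's quasi-likelihood test the Benjamini-Hochberg adjusted p were 0.871, 0.624 and 0.512, so none passed. Without AML WT replicate 3 the 3 AML KO mice lay above both remaining AML WT mice in each CD3 gene, and the log2 fold changes were 0.97 for Cd3e (adjusted p = 0.293), 1.73 for Cd3g (0.0694) and 1.64 for Cd3d (0.104). Without AML WT replicate 1 they were −0.24, 0.08 and 0.19. The size of the difference therefore turned on 1 mouse in either direction, and for Cd3e so did its sign. AML HET against AML WT gave 0.08 for Cd3e, 0.65 for Cd3g and 0.63 for Cd3d, with adjusted p of 0.996, 0.990 and 0.990, and AML KO against AML HET gave 0.11, −0.11 and 0.04, with adjusted p of 0.979, 0.980 and 0.993. Cd3e overlaps the genes Gm48719 and Gm48720, 1 of them on the opposite strand. Whether counting used the strand is not given in the sources used here, so counts of Cd3e may include reads of these genes.

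**Figure D1:**
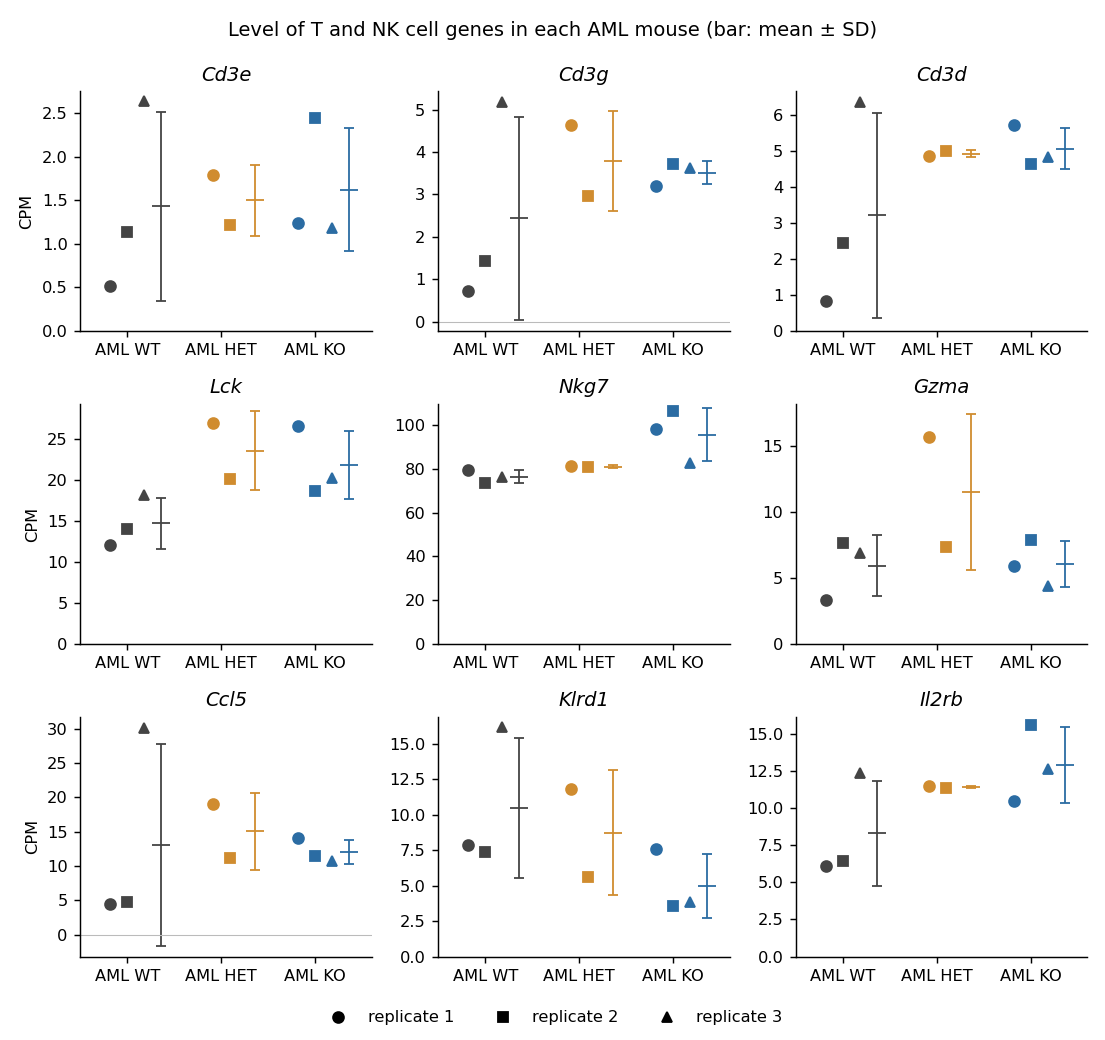
Level of each of the 9 genes in each mouse, in CPM on a linear axis that includes 0, with 1 point per mouse and the mean ± SD of each genotype. For Cd3e, Cd3g, Cd3d and Ccl5 the AML WT mice span the range of all 8 mice, with replicate 3 at the top. For Lck and Nkg7 every AML WT mouse lies below every AML HET and AML KO mouse, though only narrowly for Nkg7 against AML HET.

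Lck, the kinase that starts TCR signalling, was lower in each AML WT mouse than in any other mouse. It was at 11.998, 14.003 and 18.1 CPM in AML WT, 27.0 and 20.1 in AML HET and 26.6, 18.7 and 20.2 in AML KO mice. The lowest AML KO mouse was close to the highest AML WT mouse, replicate 3. The log2 fold change for AML KO against AML WT was 0.57 (standard error 0.21, unadjusted p = 0.0217), which missed the threshold after adjustment (adjusted p = 0.228 in edgeR with Benjamini-Hochberg adjustment). AML HET against AML WT was 0.68 (standard error 0.23, unadjusted p = 0.0148, adjusted p = 0.990). Between AML KO and AML HET it was −0.11 (adjusted p = 0.947) and the groups overlapped. With each mouse left out in turn, the log2 fold change of AML KO against AML WT stayed between 0.41 and 0.75. It was 0.43 without AML WT replicate 1 (unadjusted p = 0.0743 in edgeR) and 0.75 without AML WT replicate 3 (0.00664). Lck, on chromosome 4 from 129548344 to 129573641, overlaps the microRNA gene Mir8119. Lck thus did not share the spread of the CD3 genes between AML WT mice, at 21.1%.

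Of the cytotoxic granule genes, Nkg7 was the steadiest of the 9 genes and Gzma peaked in a single AML HET mouse. Nkg7 was at 79.6, 73.4 and 76.4 CPM in AML WT, 81.4 and 80.7 in AML HET and 98.0, 106.5 and 82.5 in AML KO mice. The genotypes did not overlap in any pair, in the order AML WT, AML HET and AML KO, but the gaps to AML HET were narrow on both sides. AML KO replicate 3 was only just above the AML HET mice. AML HET replicate 2, at 80.7 CPM, was only just above AML WT replicate 1, at 79.6, with counting errors of 1.99% and 1.76%. The log2 fold change of Nkg7 was 0.32 for AML KO against AML WT (standard error 0.12, unadjusted p = 0.0261, adjusted p = 0.241), AML HET against AML WT 0.08 (standard error 0.14, adjusted p = 0.990) and AML KO against AML HET 0.24 (standard error 0.14, adjusted p = 0.856). For AML KO against AML WT it was 0.32 without AML WT replicate 3, the same as with it (unadjusted p = 0.0557 in edgeR). Without AML WT replicate 1 it was 0.34 (0.0297). Gzma was at 3.29, 7.65 and 6.86 CPM in AML WT, 15.7 and 7.33 in AML HET and 5.92, 7.86 and 4.36 in AML KO mice. AML HET replicate 1 had the highest Gzma level by a wide margin, while AML HET replicate 2 lay within the range of the other groups. The log2 fold change of Gzma was 0.03 between AML KO and AML WT (standard error 0.39, adjusted p = 0.972) and 0.96 between AML HET and AML WT (unadjusted p = 0.0472, adjusted p = 0.990). Without AML HET replicate 1 the latter was 0.31.

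Ccl5, the chemokine, was low and nearly equal in AML WT replicates 1 and 2 and far higher in AML WT replicate 3. It was at 4.45, 4.84 and 30.1 CPM in AML WT, 19.0 and 11.1 in AML HET and 14.03, 11.4 and 10.8 in AML KO mice. AML WT replicate 3 had 983 counts, against 181 and 153 in the other AML WT mice, and was 6.48-fold above their mean. All AML HET and AML KO mice lay between these values. With all mice, AML KO against AML WT was at −0.12 (standard error 0.64, adjusted p = 0.931). Without AML WT replicate 3 it was 1.38 (standard error 0.27), with an adjusted p of 0.0392 in edgeR with Benjamini-Hochberg adjustment. Ccl5 was then the only one of the 9 genes past the threshold, in 1 of the 8 fits that each left out 1 mouse. That fit leaves out the mouse with the highest Ccl5 level, which raises the difference. Without AML WT replicate 1 or 2 the value was −0.54 and −0.51, so replicate 3 was the only mouse whose absence turned the sign. With all 8 mice, limma-voom and the fit with the replicate number as a block gave 0.50 each. AML HET against AML WT was 0.20 with all mice (standard error 0.71, adjusted p = 0.994) and −0.24 to 1.71 with each mouse left out in turn.

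The receptor genes had fold changes of opposite sign against AML WT, neither past the adjusted threshold. Klrd1, which encodes CD94, was at 7.87, 7.40 and 16.2 CPM in AML WT, 11.9 and 5.64 in AML HET and 7.62, 3.57 and 3.83 in AML KO mice. AML KO replicates 2 and 3 had the lowest levels of all 8 mice, while AML KO replicate 1 lay within AML WT, so the groups overlapped. The log2 fold change of AML KO against AML WT was −1.07 (standard error 0.43, unadjusted p = 0.0320, adjusted p = 0.251), the only one of the 9 genes below 0 at an unadjusted p under 0.05. It was −0.61 without AML WT replicate 3 (unadjusted p = 0.154) −1.25 without AML WT replicate 1 (unadjusted p = 0.0236) and −1.50 without AML KO replicate 1. Il2rb, the shared beta chain of the IL-2 and IL-15 receptors, was at 6.10, 6.42 and 12.4 CPM in AML WT, 11.5 and 11.4 in AML HET and 10.5, 15.6 and 12.6 in AML KO mice. AML WT replicate 3 again reached the level of the other genotypes, and the other AML WT mice lay below all of them. The same fold change of Il2rb was 0.64 (standard error 0.28, unadjusted p = 0.0492, adjusted p = 0.282), and 1.04 without AML WT replicate 3 (standard error 0.23, adjusted p = 0.0569). The value was 0.45, 0.48 and 0.48 without AML WT replicate 1, AML WT replicate 2 and AML KO replicate 2, in that order, with adjusted p of 0.635, 0.436 and 0.350. AML HET against AML WT was −0.26 for Klrd1 and 0.46 for Il2rb, both with an adjusted p of 0.990. For AML KO against AML HET the values were −0.80 (adjusted p = 0.856) and 0.17 (adjusted p = 0.938).

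**Figure D2:**
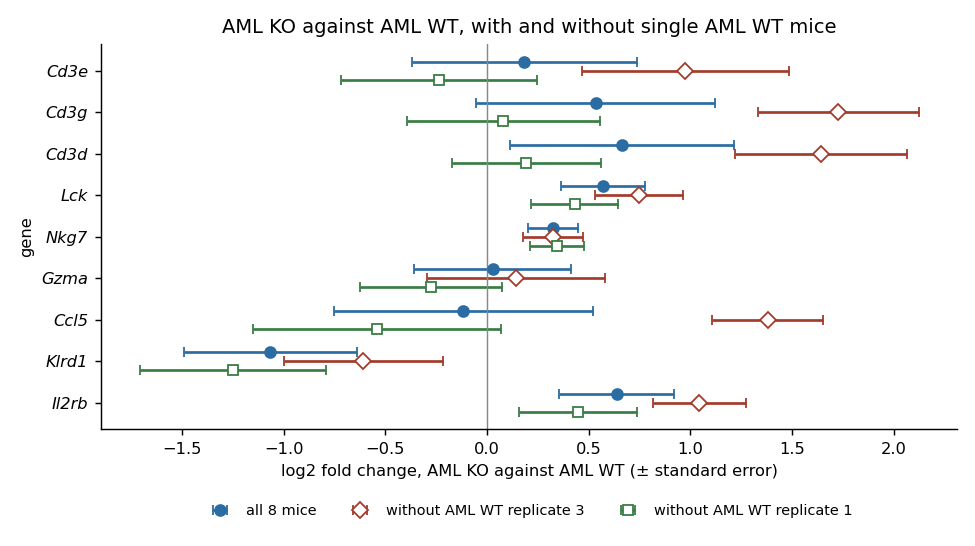
Log2 fold change of AML KO against AML WT for each of the 9 genes (horizontal axis, with bars of 1 standard error), fitted with all 8 mice (filled circles), without AML WT replicate 3 (open diamonds) and without AML WT replicate 1 (open squares). Ccl5 moved from −0.12 to 1.38 without replicate 3 and to −0.54 without replicate 1, and Cd3g from 0.54 to 1.73 and to 0.08, while Nkg7 stayed at 0.32 and 0.34.

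When AML KO was compared with AML WT, edgeR called 0 of the 9 genes at an adjusted p under 0.05 and 2.09% of all genes, and DESeq2 and limma-voom also called 0 of the 9. At an unadjusted p under 0.05 there were 4, with Lck, Nkg7 and Il2rb higher and Klrd1 lower in AML KO. Of all genes, 17.7% had such a p, 9.77% higher and 7.88% lower. In Lck and Nkg7, 2 of the 9, every AML KO mouse lay above every AML WT mouse, as in 12.3% of all genes, and in 0 genes every AML KO mouse lay below, as in 9.83% of all genes. The median log2 fold change of the 9 genes was 0.32, against −0.02 over all genes. Without AML WT replicate 3, which was the highest AML WT mouse in 7 of the 9, Ccl5 alone passed the adjusted threshold (1.79% of all genes) and 5 of the 9 had an unadjusted p under 0.05 (20.2% of all genes). Higher values in AML KO follow in part from leaving out that mouse. The fit without AML WT replicate 1 called 0 of the 9 in edgeR (1.26% of all genes), and only Nkg7 and Klrd1, 2 of the 9, had an unadjusted p under 0.05 (10.9% of all genes), while Cd3e, Gzma and Ccl5 were below 0 at −0.24, −0.28 and −0.54.

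Between AML HET and AML WT, edgeR, DESeq2 and limma-voom called 0 of the 9 genes, and edgeR called 0.0225% of all genes. Gzma and Lck had an unadjusted p under 0.05 (2.47% of all genes), and in Lck and Nkg7 the AML HET mice lay above all AML WT mice (9.53% of all genes). The median of the 9 genes was 0.46, against −0.01 over all genes. Between AML KO and AML HET, edgeR called 0 of the 9 genes and 0% of all genes, and neither DESeq2 nor limma-voom called any of the 9. There were also 0 of the 9 at an unadjusted p under 0.05, where 5.86% of all genes had one. Nkg7 alone was higher in every AML KO than in every AML HET mouse, as were 13.2% of all genes. Here the median of the 9 genes was −0.11, against 0.00 over all genes. The comparisons share mice, so their values are given side by side and not as separate evidence.

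A model with 1 slope per lost Gab2 allele used all 8 mice at once. It called 0 of the 9 genes in edgeR, DESeq2 and limma-voom, with 2.64% of all genes called in edgeR. At an unadjusted p under 0.05 there were 4 (20.2% of all genes). In edgeR these were Nkg7, at a slope of 0.16 log2 units per lost allele (standard error 0.057), Klrd1 at −0.53 (0.21), Lck at 0.28 (0.12) and Il2rb at 0.32 (0.14). Their adjusted p lay between 0.180 for Nkg7 and 0.233 for Il2rb. The slopes of the CD3 genes were 0.092 for Cd3e, 0.27 for Cd3g and 0.33 for Cd3d, that of Gzma was 0.015 and that of Ccl5 −0.058.

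AML WT replicates 1 and 3 lay at opposite ends of AML WT for some markers of other cells as well. Against the mean of AML WT replicates 1 and 2, replicate 3 was 4.85-fold higher for Cd3g, 3.90-fold for Cd3d, 3.18-fold for Cd3e, 2.13-fold for Klrd1, 1.98-fold for Il2rb, 1.39-fold for Lck and 1.25-fold for Gzma, while Nkg7 was at 0.999-fold. Among markers of other cells, it was the highest AML WT mouse for 10 of 13 B cell genes and 10 of 12 mature neutrophil genes, with a median ratio of 1.70 and 1.95. For erythroid genes this held for 5 of 11, and for megakaryocyte and platelet genes and for monocyte and macrophage genes for 4 of 12 each. The summed level of the 13 B cell genes was 46.8, 84.4 and 97.2 CPM in the AML WT mice, in the same order as the CD3 genes, 79.1 and 95.7 in the AML HET mice and 69.4 to 104.3 in the AML KO mice. That of the 12 mature neutrophil genes was 1377, 2724 and 4767 CPM in the AML WT mice. In both sums replicate 1 was lowest and replicate 3 highest. The part of other cells in the AML WT spread was not tested.

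**Figure D3:**
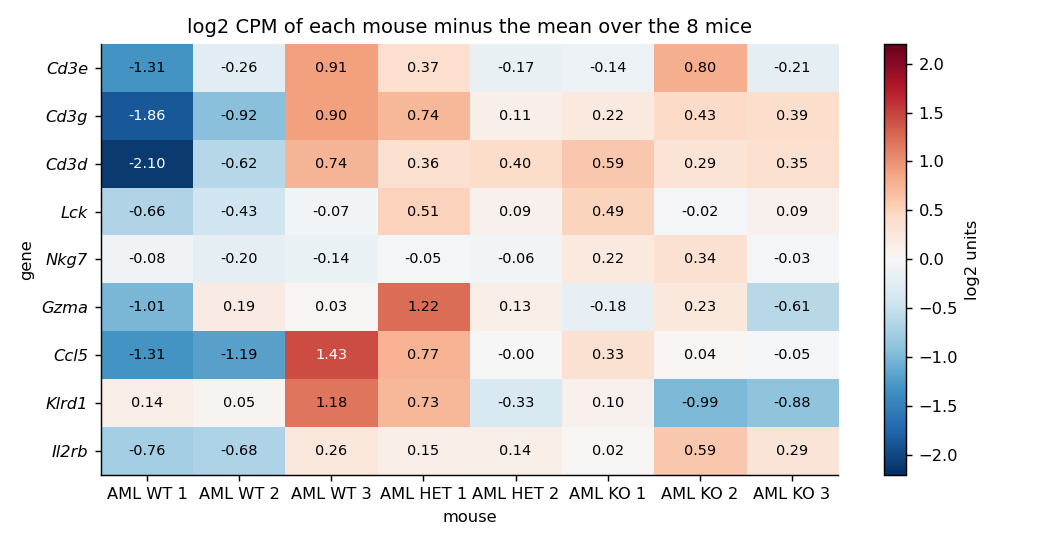
Log2 CPM of the 9 genes (vertical, with a prior count of 2) in each of the 8 mice (horizontal), minus the mean of the gene over all mice, with red above and blue below that mean. AML WT replicate 1 is below the mean for all genes but Klrd1, at 0.14, and AML WT replicate 3 is highest for Ccl5, at 1.43, and Klrd1, at 1.18.

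How the 9 genes varied among themselves is described over the 8 mice as the root mean square difference of their centred log2 levels, for which a smaller value means more alike. The neighbours Cd3g and Cd3d were the most alike pair, at 0.263 log2 units, followed by Lck and Il2rb at 0.342. Ccl5 was closer to Cd3g, at 0.358, than to the granule genes Gzma, at 0.774, and Nkg7, at 0.847. Klrd1 was the least like the others and furthest from Cd3d, at 1.10. The range over all mice, as the ratio of the highest to the lowest, was taken from these log2 levels, which include a prior count of 2. This lowers the ratio most in genes with few counts, so it is not that of the CPM levels given above. It was 7.16 for Cd3d, 6.75 for Cd3g, 6.68 for Ccl5, 4.71 for Gzma and 4.66 for Cd3e. Klrd1 had 4.49, Il2rb 2.54, Lck 2.24 and Nkg7 1.45. The steadiest genes were Nkg7 and Lck, with 2322 to 3239 and 443 to 812 counts per mouse.

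Averaged over Cd3e, Cd3g, Cd3d and Lck, the centred log2 level was −1.48, −0.56 and 0.62 in the AML WT mice, 0.49 and 0.10 in AML HET and 0.29, 0.38 and 0.16 in AML KO. Averaged over the 5 NK and cytotoxic genes, it was −0.60, −0.37 and 0.55 in AML WT, 0.56 and −0.03 in AML HET and 0.10, 0.04 and −0.26 in AML KO. Both averages had AML WT replicates 1 and 2 at the bottom and AML WT replicate 3 and AML HET replicate 1 at the top. Of all other genes, Ankrd33b (a difference of 0.204 log2 units), Txk (0.210), a Tec-family kinase of T cells, and Xcl1 (0.212), a chemokine of T and NK cells, were nearest to the T cell average over the 8 mice. Nearest to the NK and cytotoxic average were Ifitm3 (0.0823), an interferon-induced membrane protein, H2-T23 (0.102), which encodes Qa-1, and Gm20707 (0.126). The averaged genes themselves lay further from their averages. The differences were 0.243 for Cd3g to 0.413 for Lck in the T cell average. In the NK and cytotoxic average they were 0.356 for Il2rb to 0.581 for Klrd1, so this average is not the profile of any of its 5 genes. Xcl1 had 7 to 39 and Txk 27 to 66 counts per mouse, so counting error is part of their profiles, whereas Ifitm3 had 10422 to 18496.

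**Figure D4:**
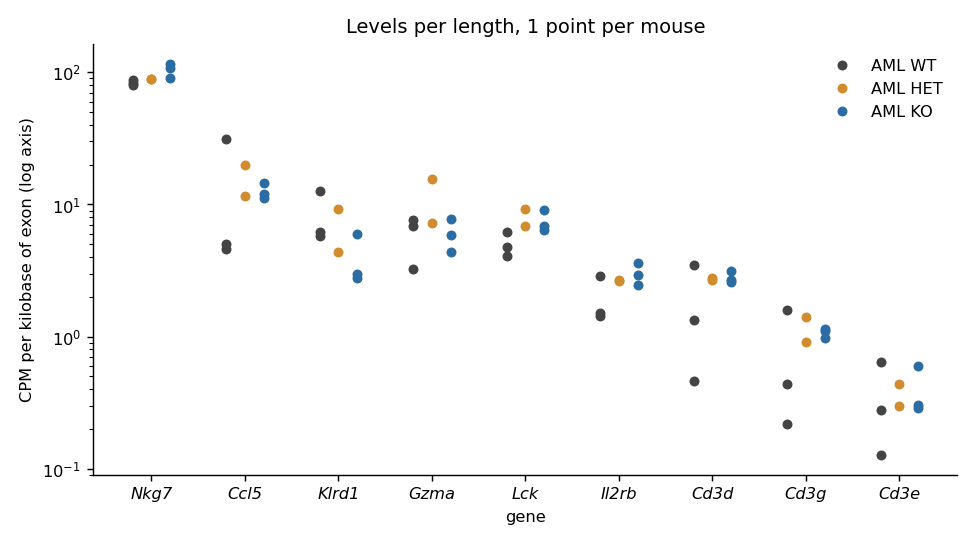
Level of the 9 genes per length, in CPM per kilobase of exons on a log axis, with 1 point per mouse coloured by genotype. Nkg7 is highest in every mouse, and Cd3e and Cd3g are the lowest of the group means.

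Per length, in CPM per kilobase of exons, Nkg7 had by far the highest level in AML WT BM, at 83.7 ± 3.41 (SD, n = 3). It was followed by Ccl5 at 13.7 ± 15.3, Klrd1 at 8.19 ± 3.88, Gzma at 5.90 ± 2.31, Lck at 5.02 ± 1.06, Il2rb at 1.93 ± 0.824, Cd3d at 1.77 ± 1.57, Cd3g at 0.745 ± 0.733 and Cd3e at 0.350 ± 0.267. The steps from Nkg7 to Ccl5 and from Lck to Il2rb were larger than the summed SDs of the neighbours. At the other steps of this order the means differed by less than the summed SDs. This rule ignores that all genes were measured in the same mice. In AML KO BM the order was Nkg7 (104.7 ± 13.3), Ccl5 (12.6 ± 1.79), Lck (7.45 ± 1.43), Gzma (6.01 ± 1.74), Klrd1 (3.91 ± 1.77), Il2rb (3.01 ± 0.598), Cd3d (2.79 ± 0.315), Cd3g (1.07 ± 0.0830) and Cd3e (0.397 ± 0.174). Klrd1 thus stood behind Ccl5 in AML WT and behind Gzma in AML KO. Within the CD3 cluster Cd3d was above Cd3g and Cd3g above Cd3e in every mouse, although the levels of each varied widely between AML WT mice. In AML WT replicate 1 they were at 0.461, 0.218 and 0.127, and in AML WT replicate 3 at 3.51, 1.58 and 0.645.

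The pathways around these genes were followed with 6 lists that hold 133 genes, of which 110 are in the table. Between AML KO and AML WT, 5 of the 110 (4.55%) passed the adjusted threshold, 3 higher and 2 lower, where 1.77% of all genes were called higher and 0.323% lower. At an unadjusted p under 0.05 18 of the 110 were higher and 15 lower, where 9.77% and 7.88% of all genes were. The median log2 fold change of the 110 was −0.01, against −0.02 over all genes. AML HET against AML WT and AML KO against AML HET had 0 of the 110 past the threshold in edgeR, with 3 and 12 at an unadjusted p under 0.05 (2.47% and 5.86% of all genes). DESeq2 called 0 and 1, and the slope per lost allele called 6 in edgeR (2.64% of all genes).

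In TCR signalling, 24 of 25 listed genes were in the table, with a median of 0.14 between AML KO and AML WT. Prkcq, which encodes protein kinase C theta and acts downstream of the TCR, rose from 5.85, 4.96 and 5.94 CPM in AML WT to 13.7, 11.03 and 10.8 in AML KO, with 8.87 and 8.67 in AML HET. All AML KO mice lay above all AML HET mice and these above all AML WT mice, with a log2 fold change of 1.09 (adjusted p = 0.0163 in edgeR with Benjamini-Hochberg adjustment). Lat, the adaptor that Zap70 phosphorylates, had a log2 fold change of 0.98 (adjusted p = 0.148) and Trdc, the constant part of the delta TCR chain, had 1.10 (adjusted p = 0.262) at 14 to 57 counts per mouse. The call of Prkcq was lost without AML WT replicate 2 (adjusted p up to 0.0883), AML KO replicate 1 or AML KO replicate 3.

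Of T cell surface proteins and regulators, 28 of 33 listed genes were in the table, with a median of −0.13. Thy1, a surface protein of T cells and of progenitors, rose from 36.9, 50.9 and 58.2 CPM in AML WT to 97.3, 92.8 and 84.2 in AML KO, with 57.7 and 64.6 in AML HET (log2 fold change 0.91, adjusted p = 0.0255). Cd27, a costimulatory receptor of T cells and also of progenitors, rose from 21.2, 24.7 and 30.2 CPM to 48.0, 39.9 and 41.6, with 32.0 and 34.0 in AML HET (0.77, adjusted p = 0.0380). In both genes every AML KO mouse lay above every AML WT and AML HET mouse. Ccr7, the homing receptor of naive T cells, was at 3.02, 3.98 and 21.4 CPM in AML WT and at 2.75, 3.89 and 3.21 in AML KO, so that its log2 fold change of −1.52 (adjusted p = 0.285) became −0.09 without AML WT replicate 3. Il7r, the IL-7 receptor alpha chain, had −1.36 (adjusted p = 0.135). Ccr9, a homing receptor of T cells and plasmacytoid dendritic cells, had −1.39 (adjusted p = 0.0708), and its slope of −0.70 per lost allele passed the threshold (adjusted p = 0.0419). Each of Thy1 and Cd27 lost its call in 6 of the 8 fits without 1 mouse, among them those without AML WT replicate 2, where the adjusted p was 0.0998 and 0.150, without AML KO replicate 1 or 3 and without either AML HET mouse. The sixth fit was that without AML KO replicate 2 for Thy1 and without AML WT replicate 1 for Cd27. With only AML WT and AML KO mice in the fit, the adjusted p was 0.0521 for Thy1 and 0.0757 for Cd27.

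Of NK receptors and regulators, 23 of 33 listed genes were in the table, with a median of 0.14, and 0 passed in edgeR while 5 were higher and 5 lower at an unadjusted p under 0.05, against 9.77% and 7.88% of all genes. Klri2, which forms receptors with Klre1 on NK cells, was lower with −1.61 (adjusted p = 0.0989), from 1.48, 1.64 and 2.36 CPM in AML WT to 0.818, 0.400 and 0.560 in AML KO. Hcst, which encodes the adaptor DAP10 of the activating receptor NKG2D, had 1.07 (adjusted p = 0.0921), and Klra7, a Ly49 receptor, had 1.07 (adjusted p = 0.247). Counts of Klra7 are uncertain because the Ly49 genes are near-identical copies. Of cytotoxic granule genes, 15 of 19 were in the table and 0 passed in edgeR, with 2 higher and 1 lower at an unadjusted p under 0.05, against the same shares of all genes. These were Stx11 (0.42, unadjusted p = 0.0219 in edgeR) and Unc13d (0.30, 0.0491), which take part in granule release and were named after their values were seen, and Ctsc. The largest differences of the list were those of Serpinb9, an inhibitor of granzyme B, at −0.66 (adjusted p = 0.321), Ctsc, the protease that activates granzymes, at −0.65 (0.146) and Gzmb, granzyme B, at −0.56 (0.519). Gzmb peaked in AML HET replicate 1, at 11.1 CPM, as Gzma did. It was at 3.61 to 9.43 CPM in AML WT and 2.58 to 6.33 in AML KO mice. Ctsc was far higher than Gzmb, at 182.2 to 386.2 CPM over all mice. Whether other marrow cells contributed to Ctsc was not tested.

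In the IL-2 and IL-15 receptor pathway, 11 of 12 listed genes were in the table, 0 passed in edgeR and 2, Il2ra and Cish, were higher at an unadjusted p under 0.05 (9.77% of all genes). Il2ra, the alpha chain of the IL-2 receptor, had 0.93 (adjusted p = 0.198), at 4.38, 3.60 and 6.95 CPM in AML WT and 8.40, 10.1 and 9.96 in AML KO mice, which did not overlap. The STAT5-induced inhibitors Cish and Socs2 had 0.49 (adjusted p = 0.169) and 0.41 (0.285). Of the relatives and receptors of Ccl5, 9 of 11 were in the table, and 7 of them were lower, with a median of −0.33. Ccl2, a chemokine for monocytes, had −2.49 (adjusted p = 0.206) at 1 to 76 counts per mouse, and Ackr1, an atypical receptor that binds chemokines such as Ccl5, had 0.71 (adjusted p = 0.272).

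**Figure D5:**
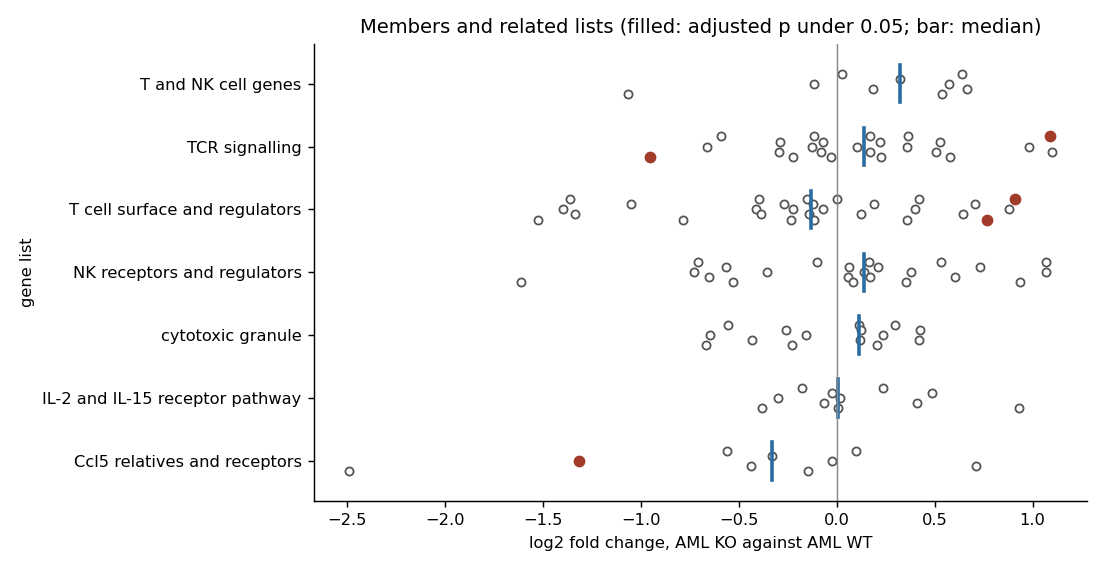
Log2 fold change of AML KO against AML WT (horizontal axis) for the 9 genes and for the genes of each of the 6 related lists (vertical axis), with 1 circle per gene, filled where the adjusted p was under 0.05, and a bar at the median of each list. The 9 genes have no filled circle, with a median of 0.32, and 5 of the 110 related genes are filled, 3 on the higher and 2 on the lower side.

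Markers of several other BM cells were called higher in AML KO BM, where 1.77% of all genes were called higher. The summed level of 12 megakaryocyte and platelet genes was 38.6 to 41.1 CPM in AML WT, 61.5 to 99.3 in AML HET and 245.8 to 369.0 in AML KO mice, and 12 of 12 were called higher in AML KO, among them Pf4 (log2 fold change 3.99) and Gp1bb (3.84). That of 11 erythroid genes was 35.8 to 57.0, 97.8 to 321.3 and 216.8 to 500.1 CPM, with 10 called higher, such as Rhag (3.91). That of 12 mature neutrophil genes was 1377 to 4767, 5477 to 6154 and 10526 to 17181 CPM, with 7 called higher, among them Camp (2.72), while Retnlg had 2.47 (adjusted p = 0.151). These 3 sums did not overlap between AML WT and AML KO mice. The calls of Pf4 and Gp1bb held without any single mouse. That of Camp was lost without AML WT replicate 2, AML KO replicate 1 or AML KO replicate 3 (adjusted p up to 0.126) and that of Rhag without AML WT replicate 1 or 2 or AML KO replicate 3 (up to 0.0883).

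Of 8 basophil and mast cell genes 5 were called higher (1.77% of all genes), among them Prss34 (4.24), while Cd200r3 had 2.54 (adjusted p = 0.0578). The 8 genes summed to 394.1 to 502.8 CPM in AML WT, 427.7 to 451.0 in AML HET and 493.7 to 568.7 in AML KO. The 12 monocyte and macrophage genes summed to 4830 to 5690 CPM in AML WT, 4409 to 4755 in AML HET and 3506 to 4961 in AML KO, with Mrc1 called lower (−0.87) and Vcam1 higher (1.02). Vcam1 lost its call in 6 of the 8 fits without 1 mouse and kept it without AML KO replicate 1 or 2 (adjusted p up to 0.150), while Mrc1 lost it without AML WT replicate 2 or AML KO replicate 1 or 3 (up to 0.0635) and Prss34 without AML WT replicate 2 (0.0550). Of 10 plasmacytoid dendritic cell genes 0 were called in edgeR and 5 were lower at an unadjusted p under 0.05 (7.88% of all genes). The median log2 fold change of the 10 was −0.45, with Ccr9 and Klk1 (−1.22, adjusted p = 0.281) furthest from 0. The 10 genes summed to 935.9 to 1056 CPM in AML WT and 894.9 to 1004 in AML KO mice. Among 5 genes of type 2 innate lymphoid cells, which share genes with T cells, Il1rl1, the IL-33 receptor, was called lower (−1.45), whereas Gata3, also a T cell gene, had 0.64 (adjusted p = 0.262). The call of Il1rl1 was lost without AML WT replicate 2 or AML KO replicate 3 (adjusted p up to 0.0963), and the sum of the 5 genes was 20.7 to 27.0 CPM in AML WT and 13.4 to 14.7 in AML KO mice. The 13 B cell genes had 0 called in edgeR and 0 at an unadjusted p under 0.05 (17.7% of all genes). Vpreb3 (1.00, adjusted p = 0.377) and Vpreb1 (0.91, adjusted p = 0.329) were furthest from 0. The listed markers that are in the table had counts in every mouse, which a table of selected genes makes likely. The part of these shifts in the values of the 9 genes was not tested.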

How the data were processed

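The authors sequenced RNA from whole BM of 8 mice (1 library each) and deposited raw, unnormalized counts per gene, in a table of 13305 genes, with 15 of them at 0 in at least 1 mouse. The submitters' processing notes name Trimmomatic 0.36, STAR 2.5.2b and the build mm10. The counting tool, annotation and strand setting are not given in the sources used here. Ensembl identifiers were matched to GENCODE M21, with 13266 found and 39 not.

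Differences were tested with edgeR 4.0.16 under R 4.3.3 (TMM, filterByExpr, robust quasi-likelihood fit, all 8 mice, only the Gab2 genotype as a term), with Benjamini-Hochberg adjustment over the 13305 genes and a threshold of 0.05. The slope per lost allele replaced the genotype with the number of lost alleles. Standard errors were derived from the F statistic. The scripts were tested on simulated data. Mice of a group differed by more than sampling noise (chi-square per gene of 27.7 to 144), so no library was counted as a duplicate. Genes were named as follows: the 9 genes and Gab2, the 3 largest differences and all calls of each related list, the 2 largest of each list of other cells, and the 3 genes nearest to each average profile (centred log2 CPM, prior count 2). The 9 genes and all lists were chosen with earlier results of these data known. Genes used to check cell type labels are named with their counts.

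The alternatives were DESeq2 1.42.0, limma-voom (limma 3.58.1), upper-quartile and RLE normalization, other filters, the replicate number as a block, a fit without robust estimation, only the groups compared, each mouse left out, another gene length and another prior count. Python 3.11.15, pandas 2.3.3 and matplotlib 3.10.9 made the tables and figures. Promoter windows were taken from RefSeq (GRCm38.p6), where 6 of the 9 genes were matched. Ccl5, Klrd1 and Il2rb were not. Some genes that meet the rule for named genes are not reported here.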

Additional observations from a re-analysis of the deposited data

How the results depend on the processing

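The count of T and NK cell genes past the threshold was 0 of 9 under every alternative in every comparison, except between AML KO and AML WT, where leaving out 1 mouse gave 0 to 1 (Ccl5, without AML WT replicate 3). Over the 9 genes and 4 comparisons, 308 of 315 values kept their direction under alternatives other than leaving out a mouse. The other 7 turned and all stayed short of the threshold. Ccl5 was 0.50 between AML KO and AML WT with limma-voom and 0.50 with the replicate block, and its slope per lost allele was 0.25 and 0.17. With the replicate block Cd3e was −0.15 and Cd3d −0.22 between AML KO and AML HET, and the slope of Gzma was −0.024. Leaving out single mice turned 25 of 288 values. The range between AML KO and AML WT was −0.24 to 0.97 for Cd3e, −0.28 to 0.25 for Gzma and −0.54 to 1.38 for Ccl5. Between AML HET and AML WT it was −0.33 to 0.88 for Cd3e, −0.24 to 1.71 for Ccl5 and −0.89 to 0.21 for Klrd1. For AML KO against AML HET it was −0.31 to 0.41 for Cd3e, −0.40 to 0.25 for Cd3g, −0.051 to 0.087 for Cd3d, −0.31 to 0.12 for Lck and −0.65 to 0.12 for Ccl5. For the slope it was −0.11 to 0.46 for Cd3e, −0.20 to 0.18 for Gzma and −0.27 to 0.59 for Ccl5. When an AML HET mouse was left out, the remaining 1 was assumed to vary like the other groups.

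Counts over all genes moved more. For AML KO against AML WT (278 genes), DESeq2 gave 730, the replicate block 19 and leaving out single mice 40 to 370. Between AML HET and AML WT (3), DESeq2 gave 59, limma-voom 1, the replicate block 0, only the groups compared 5 and single mice 1 to 5. For AML KO against AML HET (0), there were 77 with DESeq2, 3 with only the groups compared and 0 to 4 with single mice. For the slope (351), DESeq2 gave 865, the replicate block 125 and single mice 137 to 525. Of the 110 related genes, 5 passed between AML KO and AML WT, with 14 in DESeq2, 0 with the replicate block, 3 with only the groups compared and 0 to 5 without single mice. DESeq2 also gave 1 between AML KO and AML HET, where edgeR gave 0. For the slope (6) DESeq2 gave 17, the replicate block 1 and single mice 1 to 10. The cause of these shifts was not tested. The level of Lck per length in AML WT was 6.73 with the longest transcript in place of all exons. With a prior count of 0.5, 2 of the 3 genes nearest to the T cell average and 3 of the 3 nearest to the NK and cytotoxic average were again among the nearest.

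After subtraction of group means, same-numbered mice correlated at −0.51 to 0.29 and other mice of different genotypes at −0.36 to 0.46. With so few mice per group, this cannot show whether the replicate numbers mark a shared litter or day. The labels do not say that they do, so the block is an alternative and not part of the main fit. Depth limits the CD3 genes, whose lowest count was 21.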
